A study of Mus musculus with 34 samples.

Results

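The genes described here are 6 markers of neural crest cells and of the Schwann cell precursors that form from them, *Sox10*, *Erbb3*, *Fabp7*, *Foxd3*, *Ngfr* and *Ednrb*. They were taken by name from an mRNA-seq table of 22040 protein-coding genes, and each name matched 1 row. The libraries came from mouse limb buds at E11.5, with 3 biological replicates labelled *Hnrnpk* WT and 3 labelled *Hnrnpk* CKO, and each was made with a stranded mRNA kit. The CKO embryos carried *Prrx1-Cre* and floxed *Hnrnpk* alleles, so recombination follows the activity of the *Prrx1* promoter in limb bud mesenchyme, and the Cre and floxed alleles of the WT embryos are not given in the sources used here. Embryos of both sexes entered the study without being told apart, and how many embryos made up a library is not stated, so *p* values measure the spread between these libraries.

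The neural crest arises at the border of the neural plate and sends cells far into the embryo. In the limb, crest-derived cells arrive with the growing nerves as Schwann cell precursors, which later form the glia of the peripheral nerve, and some of them give rise to pigment cells. Their lineage is separate from the limb bud mesenchyme in which *Prrx1-Cre* is active. *Foxd3* and *Sox10* encode transcription factors of the crest and its glial descendants, *Erbb3* the receptor through which axonal neuregulin keeps the precursors alive, *Ednrb* the receptor for endothelin 3, *Ngfr* the low-affinity receptor for neurotrophins, and *Fabp7* a lipid-binding protein of immature glia. *Ngfr* and *Ednrb* are also expressed outside the crest.

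Values are FPKM, the fragments on a gene divided by its length and by a size for the whole library. The reads on the listed genes numbered from 17140869 to 24624434 per library. The targeted gene *Hnrnpk* averaged an FPKM of 191 in the 3 WT libraries (SD 4.996) and 135 in the 3 CKO libraries (SD 7.48). Its log2 fold change was -0.50 (limma adjusted *p* = 0.334, standard error 0.13), and every CKO library was lower than every WT library. The mesenchymal genes *Prrx1* and *Twist1* had an FPKM of at least 51.6 and 83.0 in every library. Globin transcripts, a product of erythroid cells, took a share of the summed FPKM that ran from 11.7% to 32.4% over 7 genes. In bulk tissue, fewer cells of a type and less RNA per cell cannot be told apart.

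All 6 genes had reads in the limb buds, at low levels. Over the 6 libraries, *Ngfr* had a mean FPKM of 4.50, *Erbb3* 3.18, *Ednrb* 1.71, *Sox10* 1.51, *Foxd3* 0.401 and *Fabp7* 0.276. *Ngfr* was above *Erbb3*, *Erbb3* above *Ednrb*, and *Sox10* above *Foxd3* in 6 of 6 libraries. *Ednrb* was above *Sox10* in 3 of 6 and *Foxd3* above *Fabp7* in 5 of 6 libraries, so the order within these last pairs did not hold across libraries. *Foxd3* and *Fabp7* lay under the mean FPKM of 0.5 that was required for a test, which left 4 of the 6 genes among the 12305 genes tested.

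*Sox10* (ENSMUSG00000033006, chromosome 15 of GRCm38 from 79154908 to 79165240, minus strand) was measured at an FPKM of 0.491, 2.02 and 1.79 in the WT libraries numbered 1, 2 and 3, and at 1.32, 1.75 and 1.70 in the CKO libraries of the same numbers. WT replicate 1 was the lowest library and WT replicate 2 the highest, so the CKO values fell inside the WT range. The log2 fold change was 0.33 (standard error 0.46, 95% interval from -0.73 to 1.40, limma adjusted *p* = 0.890), which corresponds to between 0.605 and 2.63 times the WT level. The 24 reads of WT replicate 1 carry a counting interval from 0.314 to 0.730 FPKM (exact Poisson, 95%), whereas the lowest bound among the other libraries was 1.02, in CKO replicate 1. These intervals cover counting error only.

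*Erbb3* (ENSMUSG00000018166, chromosome 10 from 128567523 to 128589652, minus strand) had an FPKM of 1.47, 3.67 and 3.97 in WT and of 2.75, 3.72 and 3.49 in CKO, in the order of the replicate numbers. As for *Sox10*, WT replicate 1 was lowest, CKO replicate 1 came next, and the other libraries lay close together. The log2 fold change was 0.23 (standard error 0.35, 95% interval from -0.59 to 1.05, limma adjusted *p* = 0.904). WT replicate 1 rested on 159 reads, with a counting interval from 1.25 to 1.71 FPKM, below that of CKO replicate 1 with 299 reads, from 2.44 to 3.08.

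*Ngfr* (ENSMUSG00000000120, chromosome 11 from 95568818 to 95587735, minus strand) was the highest of the 6 genes. Its FPKM was 2.38, 5.32 and 4.88 in WT and 4.30, 4.90 and 5.21 in CKO. Apart from WT replicate 1, the libraries spanned 4.30 to 5.32. Between the groups the log2 fold change was 0.27 (standard error 0.29, 95% interval from -0.40 to 0.93, limma adjusted *p* = 0.866).

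*Ednrb* (ENSMUSG00000022122, chromosome 14 from 103814625 to 103844402, minus strand) had an FPKM of 0.702, 1.75 and 1.77 in WT and of 0.958, 2.93 and 2.17 in CKO. The libraries numbered 1 were lowest in both groups. The CKO library was above the WT library of the same number for each number. How many of all tested genes had this was not counted, so it is not read as a trait of *Ednrb*. Over all 6 libraries the log2 fold change was 0.46 (standard error 0.46, 95% interval from -0.61 to 1.53, limma adjusted *p* = 0.855). With the replicate number as a block, the standard error was 0.17 and the interval ran from 0.10 to 0.83, with an adjusted *p* = 0.167 and an unadjusted *p* under 0.05, which 18.4% of all tested genes had in that model.

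*Foxd3* (ENSMUSG00000067261, chromosome 4 from 99656299 to 99658622, plus strand) had an FPKM of 0.191, 0.539 and 0.513 in WT and of 0.238, 0.674 and 0.253 in CKO, on 8 to 30 reads. WT replicate 1, CKO replicate 1 and CKO replicate 3 were low and the remaining libraries higher, so the groups overlapped. Of its exon bases, 89 are shared with an annotated microRNA gene on the same strand. *Fabp7* (ENSMUSG00000019874, chromosome 10 from 57784881 to 57788450, plus strand) had no read in WT replicate 1, where 3 reads would have been an FPKM of 0.133. In the other libraries it reached 0.434 and 0.183 in the other WT libraries and 0.133, 0.501 and 0.403 in the CKO libraries, on 3 to 13 reads. In a model without the filter on low values, the log2 fold change was -0.10 for *Foxd3* (standard error 0.43, limma adjusted *p* = 0.966) and 0.74 for *Fabp7* (standard error 0.63, limma adjusted *p* = 0.839). The second value depends on the 0.1 added to an FPKM of 0.

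**Figure D1:**
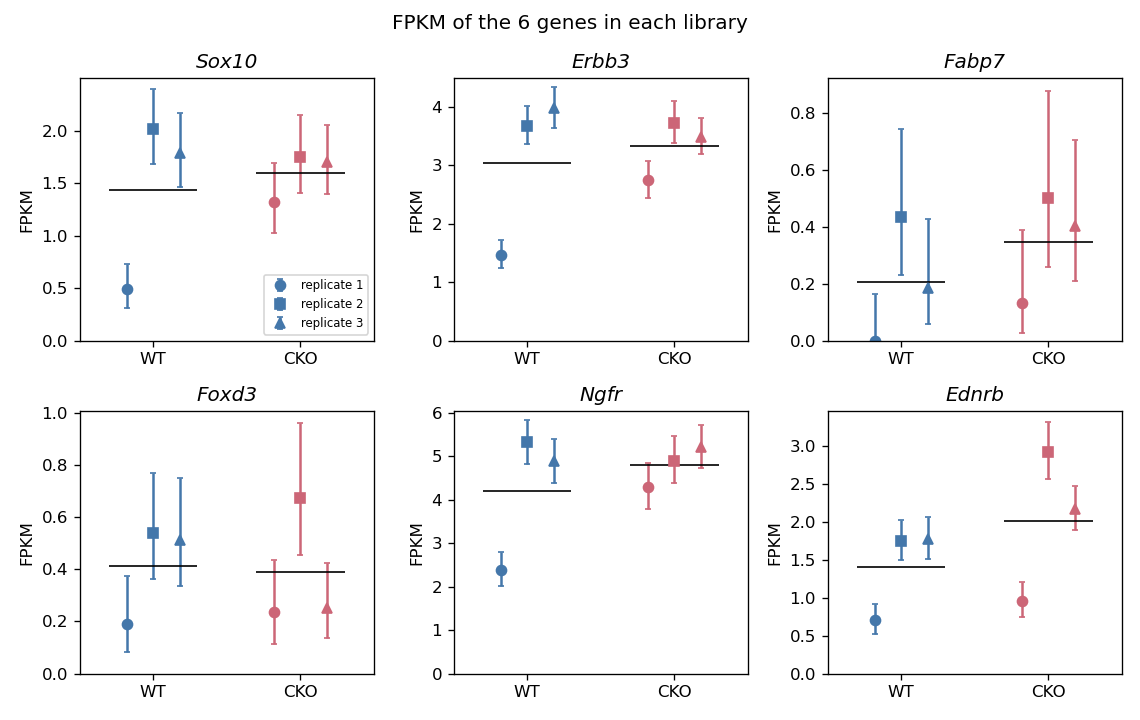
FPKM of the 6 genes in each WT and CKO library, with the replicate number as the marker shape, exact Poisson 95% intervals of the read count as bars and the group mean as a horizontal line. WT replicate 1 is the lowest of the 6 libraries in each panel, from 0 for *Fabp7* to 2.38 for *Ngfr*.

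All 4 tested genes had a log2 fold change above 0, as did 50.9% of all tested genes. None of the 4 passed an adjusted *p* value of 0.05 in limma, which 0.0650% of all tested genes did, and none passed an unadjusted *p* value of 0.05, which 8.31% did. With voom on recovered reads, the count was also 0 by either threshold. With the replicate block, 0 of 4 passed the adjusted threshold, which 2.81% of all tested genes did, 1.13% as higher in CKO. The 3 CKO and 3 WT values overlapped for all 6 genes, whereas 14.5% of all tested genes had groups without overlap. An exact two-sided permutation test of the log2 values gave *p* = 0.5 for *Ednrb*, 0.6 for *Fabp7*, 0.8 for *Ngfr*, 0.9 for *Erbb3* and 1 for *Sox10* and *Foxd3*, where 3 libraries against 3 cannot give less than 0.1. For none of the tested genes did the 95% interval without the block leave out 0, and those of *Sox10*, *Erbb3* and *Ednrb* reached past a 2-fold rise. With the replicate block the upper bounds were 0.88 for *Sox10*, 0.62 for *Erbb3* and 0.83 for *Ednrb*, all below 2-fold.

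**Figure D2:**
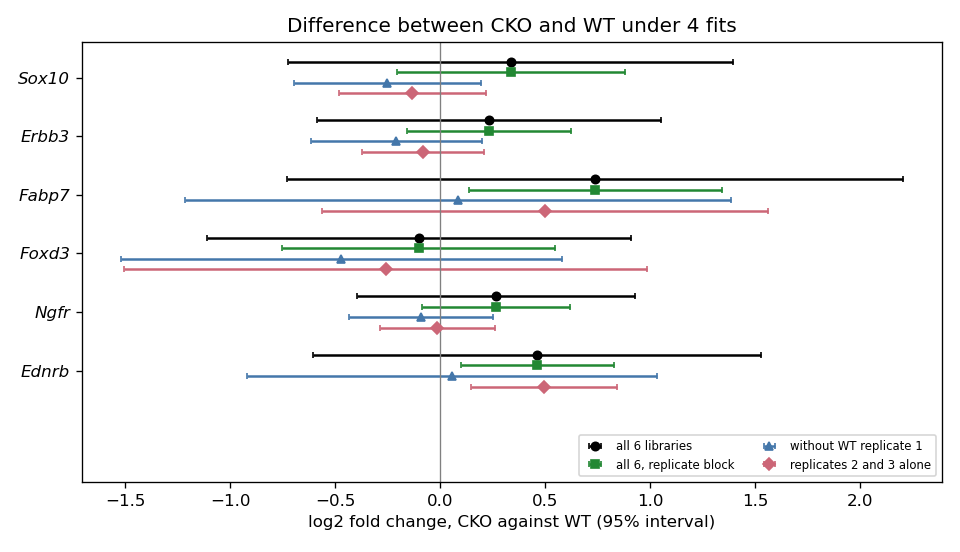
Log2 fold change of each gene in CKO against WT with its 95% interval (horizontal axis) in 4 limma models, with all 6 libraries, with the replicate block, without WT replicate 1 and with replicates 2 and 3 alone; *Fabp7* and *Foxd3* are from models without the filter. Without WT replicate 1 the value of *Sox10* is -0.25, against 0.33 with all libraries.

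For *Sox10*, *Erbb3* and *Ngfr*, the direction of the difference turned on WT replicate 1. The FPKM of this library was 0.258 times the mean of the other WT libraries for *Sox10*, 0.363 times for *Foxd3*, 0.384 times for *Erbb3*, 0.398 times for *Ednrb* and 0.467 times for *Ngfr*. CKO replicate 1 was also the lowest CKO library for all 6 genes, at between 0.293 times (*Fabp7*) and 0.851 times (*Ngfr*) the mean of CKO replicates 2 and 3. WT replicate 1 was the lowest library for 16.0% of all tested genes, and the libraries numbered 1 were the lowest of both groups for 30.9%. Without WT replicate 1, the log2 fold change was -0.25 for *Sox10* (limma adjusted *p* = 0.681), -0.21 for *Erbb3* (0.720), -0.09 for *Ngfr* (0.884) and 0.06 for *Ednrb* (0.983), so the direction turned for 3 of the 4 tested genes and none passed the threshold. For *Ednrb*, leaving out CKO replicate 1 moved the value as far in the other direction, to 0.90 (limma adjusted *p* = 0.244).

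Within the libraries numbered 1, the log2 value was higher in CKO by 1.27 for *Sox10*, 1.22 for *Fabp7*, 0.86 for *Erbb3*, 0.82 for *Ngfr*, 0.40 for *Ednrb* and 0.22 for *Foxd3*. Within the libraries numbered 2, the differences were -0.19 for *Sox10*, 0.02 for *Erbb3* and -0.12 for *Ngfr*, and within those numbered 3 they were -0.07, -0.18 and 0.09. These 3 genes therefore differed between the groups in the first pair and by at most 0.19 in the other pairs. *Ednrb* had 0.71 and 0.28 within the libraries numbered 2 and 3, *Fabp7* had 0.17 and 0.83, and *Foxd3* had 0.28 and -0.80. *Ednrb* and *Fabp7* were thus higher in CKO within each number, where the first *Fabp7* pair set 3 reads against 0. The share of all tested genes with that pattern was not counted, so it is not read as a trait of these genes. For *Fabp7*, on at most 13 reads in a library, the interval with the block and without the filter ran from 0.14 to 1.34 (limma adjusted *p* = 0.288, unadjusted *p* = 0.0233). Among the 12305 genes that passed the filter, 18.4% had an unadjusted *p* under 0.05 in limma with the block. The libraries numbered 2 and 3 correlated about as well when crossed as when paired, so these pairs rest on the labels' numbers.

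With replicates 2 and 3 alone, *Ednrb* was higher in CKO by a log2 fold change of 0.49 (95% interval from 0.15 to 0.84, limma adjusted *p* = 0.0462), where 15.0% of all tested genes passed the same threshold. This was the only one of the 16 alternatives in which a gene of the 6 passed. In the same model *Sox10* had -0.13 (95% interval from -0.48 to 0.22), *Erbb3* -0.08 (from -0.37 to 0.21) and *Ngfr* -0.01 (from -0.29 to 0.26). In this model the intervals of these 3 genes stayed within a change of 2-fold in either direction. The model leaves out the libraries numbered 1, the lowest of each group for these genes. With all 6 libraries and no block, the intervals of *Sox10* (to 1.40) and *Erbb3* (to 1.05) reached past 2-fold, so such a change is not excluded for them. *Ednrb* was not compared with them by a test.

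**Figure D3:**
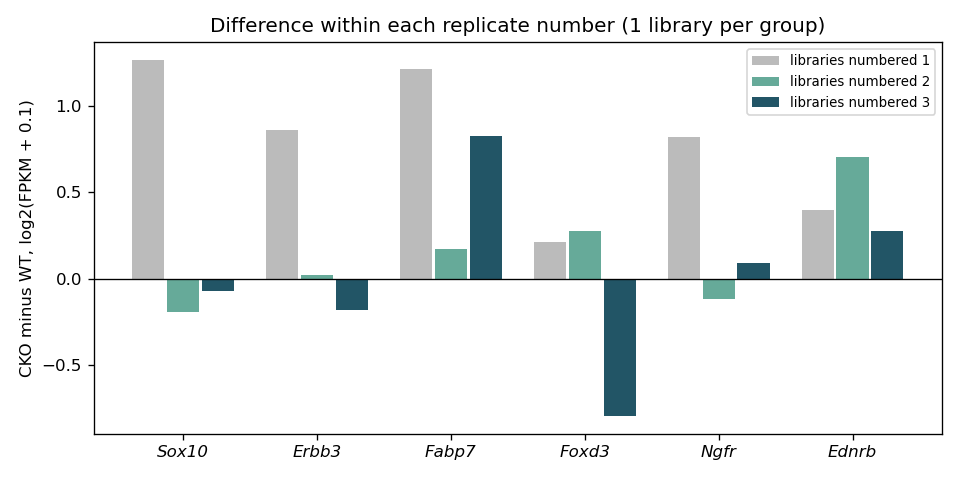
CKO minus WT on the log2(FPKM + 0.1) scale (vertical axis) for each gene within the libraries of the same number, 1 library per group and bar. The libraries numbered 1 have the largest difference for *Sox10* (1.27), *Fabp7* (1.22), *Erbb3* (0.86) and *Ngfr* (0.82), but not for *Ednrb* or *Foxd3*.

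Relative to *Sox10* in the same library, the FPKM of *Erbb3* was 2.99, 1.82 and 2.22 times as high in WT and 2.07, 2.13 and 2.05 times as high in CKO. The ratio for *Ngfr* was 4.86, 2.64 and 2.73 in WT and 3.25, 2.79 and 3.06 in CKO. For both genes the measured ratio was highest in WT replicate 1. Both ratios share the *Sox10* value of that library, which rests on 24 reads with a counting interval from 0.314 to 0.730 FPKM. Whether the high ratios there go beyond counting error was not tested. The ratio of *Ednrb* to *Sox10* was more variable, with 1.43, 0.869 and 0.990 in WT and 0.724, 1.67 and 1.28 in CKO. Over these 3 ratios, the exact two-sided permutation test gave *p* = 0.7 for *Erbb3*, 1 for *Ngfr* and 0.9 for *Ednrb* (Benjamini-Hochberg adjusted *p* = 1 for each), and 3 libraries against 3 cannot give less than 0.1.

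To find the genes whose pattern was most like that of *Sox10*, the log2 values of the other 12304 tested genes were correlated with it over the 6 libraries. The 5 genes with the highest Pearson's r were *Ngfr* (0.993, Spearman's rho 0.771), *Slc16a4* (0.989, rho 0.657), *2300009A05Rik* (0.988, rho 0.600), *Pitx3* (0.987, rho 0.486) and *Erbb3* (0.986, rho 0.829), while *Ednrb* ranked 519 with 0.814. These values describe a ranking and were not tested. Without WT replicate 1 and CKO replicate 1, the libraries farthest from the *Sox10* median, r was 0.52 for *Ngfr*, 0.32 for *Slc16a4*, -0.14 for *2300009A05Rik*, -0.42 for *Pitx3* and 0.17 for *Erbb3*, so the likeness rested on those 2 libraries. *Pitx3* encodes a homeodomain factor and had 0.436, 1.67 and 1.59 in WT and 1.27, 1.71 and 1.79 in CKO.

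Other genes of Schwann cell precursors and glia were read from a list of 16, of which 6 passed the filter. Their median log2 fold change was 0.09, against 0.0048 over all genes tested, with 3 higher and 3 lower in CKO. None passed the adjusted threshold with or without the replicate block. *Pmp22*, a myelin protein gene also active in mesenchyme, had the lowest log2 fold change of the list (-0.43, limma adjusted *p* = 0.792, and 0.0550 with the block), and *Gap43*, a growth cone gene, had the highest level, with 13.9 to 15.7 in WT and 12.5 to 16.6 in CKO.

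Under the filter lay 10 genes of the list, among them markers that define the lineage. *Cdh19*, a cadherin of Schwann cell precursors, had 0.0648, 0.273 and 0.375 in WT and 0.155, 0.610 and 0.382 in CKO. *S100b*, a marker of more mature glia, was at 0 in replicate 3 of both groups and at most 0.149. WT replicate 1 was the lowest library for 5 of the 16 genes, among them *Cdh19*, *Lgi4* and *Gfra3*. *Sox2*, which is expressed in immature Schwann cells and in other progenitors, had 0.189, 0.244 and 0.290 in WT and 0.107, 0.127 and 0.0408 in CKO, below every WT value but too low to be tested. Among all tested genes, 8.86% had every CKO value below every WT value.

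Of 12 transcription factors of the early crest, 9 passed the filter, with a median log2 fold change of 0.16, 7 higher and 2 lower in CKO. None passed the adjusted threshold with or without the block. *Tfap2b*, an AP-2 family factor, had 5.70, 7.14 and 8.52 in WT and 9.77, 8.72 and 9.78 in CKO, with each CKO value above each WT value, as for 5.63% of all tested genes (log2 fold change 0.42, limma adjusted *p* = 0.555, and 0.103 with the block). *Sox5* had the lowest log2 fold change (-0.35, limma adjusted *p* = 0.642). The highest level was that of *Snai1*, a repressor also expressed in limb mesenchyme, with 31.4, 20.2 and 18.6 in WT and 35.1, 20.8 and 22.6 in CKO, where the libraries numbered 1 were highest. In contrast to the 6 genes, the list had 0 of 9 tested genes lowest in the libraries numbered 1 of both groups. That count was 3 of 6 for the glial list and 0 of 2 for the melanoblast genes. It was 6 of 10 for the ligands and partner receptors listed below.

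Of 7 melanoblast genes, *Kit* and *Pmel* passed the filter. *Kit*, the stem cell factor receptor, had 2.86, 2.33 and 2.28 in WT and 2.22, 2.05 and 2.17 in CKO (log2 fold change -0.20, limma adjusted *p* = 0.796), without overlap, as for 8.86% of all tested genes in that direction. *Pmel* had a log2 fold change of 0.19. The genes of pigment synthesis were at or near 0, with at most 0.0496 for *Dct* and 0.0297 for *Tyrp1* and no read for *Tyr* in any library.

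Ligands and partner receptors of *Erbb3*, *Ednrb* and *Ngfr* were read from a list of 19, of which 10 passed the filter, with a median log2 fold change of -0.03, 4 higher and 6 lower, and none past the adjusted threshold with or without the block. *Edn3*, the ligand of *Ednrb*, had 3.99, 6.93 and 6.62 in WT and 3.69, 5.80 and 5.38 in CKO, lowest in the libraries numbered 1 as for *Ednrb* (log2 fold change -0.22, limma adjusted *p* = 0.871). *Ednra*, the sister receptor, was the highest gene of the list, with 14.7, 14.4 and 13.3 in WT and 17.7, 16.5 and 14.8 in CKO (log2 fold change 0.21, limma adjusted *p* = 0.711). Its groups did not overlap, as for 5.63% of all tested genes in that direction. *Erbb2*, which pairs with *Erbb3* in the neuregulin receptor, had 9.63, 9.43 and 10.1 in WT and 11.5, 7.83 and 9.55 in CKO. *Nrg1*, which encodes the neuregulin, was at 0.190 or less in every library, under the filter. *Sort1*, a partner of *Ngfr*, had the lowest log2 fold change (-0.23, limma adjusted *p* = 0.757).

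Markers of other cell types also differed between the libraries. The libraries numbered 1 were the lowest of both groups for 6 of 6 ectoderm, 6 of 7 globin and 3 of 5 axon and neuron genes. They were so for 2 of 5 muscle progenitor, 1 of 8 mesenchymal and 1 of 6 endothelial genes, against 30.9% of all tested genes. WT replicate 1 was the lowest library for 3 of 5 tested muscle progenitor genes, 3 of 6 ectoderm genes, 1 of 5 axon and neuron genes, 2 of 7 globin genes and 0 of 8 mesenchymal and 0 of 6 endothelial genes. The summed FPKM of the 6 muscle progenitor genes was 13.9 in WT replicate 1 and 26.02 to 28.97 in the other WT libraries, against 25.2 to 32.2 in CKO, and that of the 6 ectoderm genes was 34.5 in WT replicate 1 and 39.1 in CKO replicate 1, against 58.5 to 70.5 in the libraries numbered 2 and 3. The sum of the 10 axon and neuron genes ran from 12.6 to 14.6 over the WT libraries and from 11.3 to 11.5 over the CKO libraries. Of these 10 genes, 5 lay under the filter, among them *Elavl3* and *Prph* at 0.0892 or less in every library. *Tubb3* ran from 2.84 to 4.94 and *Dcx* from 2.76 to 5.45 over the libraries. The sum of the 8 mesenchymal genes was 308 to 318 in WT and 265 to 293 in CKO. The 6 crest and glial genes summed to 5.23 in WT replicate 1, 9.70 in CKO replicate 1 and 13.1 to 14.5 in the other libraries. The part of these cell types in the levels of the 6 genes was not tested.

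Between the groups, none of the genes of these other cell types passed the adjusted threshold with or without the block. The median log2 fold change was -0.25 for 5 tested axon and neuron genes (1 higher, 4 lower), -0.17 for 8 mesenchymal genes (1 higher, 7 lower), 0.47 for 5 muscle progenitor genes (5 higher), -0.31 for 6 endothelial genes (6 lower), 0.13 for 6 ectoderm genes (5 higher, 1 lower) and 0.43 for 7 globin genes (7 higher). *Tubb3*, a neuronal tubulin, was the highest of the axon and neuron genes in level and the lowest in log2 fold change, with 3.92, 4.94 and 4.44 in WT and 2.84, 3.19 and 3.996 in CKO (-0.41, limma adjusted *p* = 0.564), and *Isl1*, a motor and sensory neuron factor, had 0.30. The *Tubb3* values of WT replicate 1 and CKO replicate 1 were the lowest of their groups. Among mesenchymal genes, the log2 fold change ran from -0.29 for *Meis2* to 0.03 for *Msx1*, among endothelial genes from -0.45 for *Kdr* to -0.02 for *Tek*, among ectoderm genes from -0.03 for *Epcam* to 0.39 for *Krt5*, among muscle progenitor genes from 0.12 for *Lbx1* to 0.68 for *Myod1*, and among globin genes from 0.29 for *Hbb-bh1* to 0.74 for *Hbb-bt*. *Hbb-y*, an embryonic globin gene, had the highest level of these lists.

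**Figure D4:**
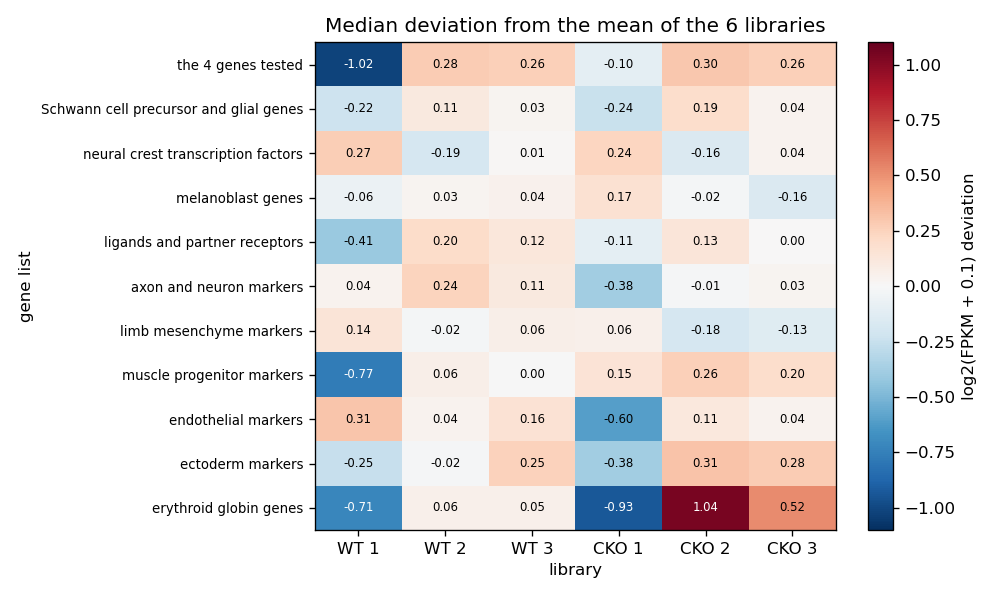
Median deviation of each gene list (rows, tested genes) from the mean of the 6 libraries, on the log2(FPKM + 0.1) scale, in each library (columns). The 4 tested genes of the 6 had -1.02 in WT replicate 1, muscle progenitor genes -0.77 and limb mesenchyme genes 0.14.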

How the data were processed

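The authors deposited 1 table of FPKM for protein-coding genes, with 1 column per library. The submitters' processing notes name mm10, cutadapt 2.5, HISAT2 2.1.0 and featureCounts 1.6.3 without their roles, and the setting for strand is not given in the sources used here. From the FPKM, GENCODE vM21 (GRCm38) exon lengths gave whole reads in all libraries for 92.6% of genes (tolerance 0.1 reads). For *Sox10* a length of 2713 bases in place of 3051 made the reads whole. The library sizes implied by the FPKM ran from 18026062 to 23935514 and were below the recovered reads in CKO replicates 2 and 3; how the authors set them is not given in the sources used here. An FPKM of 0.5 on a gene of 2 kb is 18.0 reads in the shallowest library.

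The 12305 genes whose FPKM averaged 0.5 or more were compared on log2(FPKM + 0.1), a scale that understates changes of low genes, with limma 3.58.1 (lmFit, eBayes with trend) in R 4.3.3, and *p* values were adjusted over all of them by the Benjamini-Hochberg method. The model was tested on simulated data. Same-numbered libraries deviated together from their group means (correlation 0.64, 0.44 and 0.27 across genes), so the numbers were taken as pairs. The crossed pairs of numbers 2 and 3 had 0.49 (WT 2 with CKO 3) and 0.31 (WT 3 with CKO 2), so only number 1 stood apart, and the labels do not say what a number stands for. Over all genes, 8 passed the adjusted threshold, and 346 with the replicate block. The alternatives were other pseudocounts, filters, scalings and variance models, the block, voom on recovered reads, each library left out and replicates 2 and 3 alone.

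The genes and lists were chosen, from general knowledge, with earlier results of these data known. Named from each list were the genes past the threshold, the highest in level and the extremes of log2 fold change among those tested, and also the 5 genes most like *Sox10*. Others were named after their values were seen, and some genes of the lists are not reported here. No set test was run. Samples of other assays (ATAC-seq, Hi-C, CUT&RUN) were not analysed here.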

Additional observations from a re-analysis of the deposited data

How the results depend on the processing

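Of 92 values of the 6 genes' log2 fold changes under the alternatives, 81 kept their direction and their side of the adjusted threshold, 10 changed direction, none of them past the threshold, and 1 passed it. With replicates 2 and 3 alone, the value was 0.49 for *Ednrb*, so 1 of the 4 tested genes passed, and the directions turned for *Sox10* (-0.13), *Erbb3* (-0.082) and *Ngfr* (-0.014). Leaving out each library in turn gave log2 fold changes from -0.25 to 0.67 for *Sox10*, from -0.21 to 0.48 for *Erbb3*, from -0.090 to 0.47 for *Ngfr*, from 0.06 to 0.90 for *Ednrb*, from -0.49 to 0.11 for *Foxd3* and from 0.08 to 1.29 for *Fabp7*. The negative values of *Sox10*, *Erbb3* and *Ngfr* came without WT replicate 1, and *Foxd3* was above 0 without WT replicate 2 (0.10), WT replicate 3 (0.07), CKO replicate 1 (0.11) or CKO replicate 3 (0.08). The replicate block changed no call of the 6 genes. Over all genes, the 8 calls became 14 with quantile normalization, 346 with the replicate block, 1851 with replicates 2 and 3 alone, and 1 to 23 with 1 library left out, where leaving out CKO replicate 1 gave 23, WT replicate 2 gave 3, and either CKO replicate 2, CKO replicate 3 or WT replicate 3 gave 1. The cause of these changes was not tested. Of 160 list medians, 150 moved by less than the spread between the replicate numbers. Depth limits *Foxd3* and *Fabp7* most, with at most 30 reads in a library, and a filter at a mean FPKM of 1 left no value for them.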

Other observations

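Muscle progenitor genes were lowest in WT replicate 1 for 3 of the 5 tested. *Myod1*, a master regulator of muscle fate, had an FPKM of 1.97, 6.80 and 6.63 in WT and of 7.33, 6.82 and 7.503 in CKO (log2 fold change 0.68, standard error 0.43, limma adjusted *p* = 0.739). Each CKO value lay above each WT value, as for 5.63% of all tested genes. *Myog*, which acts later in muscle differentiation, had 2.23, 13.6 and 11.2 in WT and 6.84, 15.5 and 12.7 in CKO (log2 fold change 0.65, limma adjusted *p* = 0.855). *Pax3*, which marks the migrating progenitors and also the early crest, was instead highest in the libraries numbered 1, with 3.30, 1.13 and 1.32 in WT and 3.14, 1.65 and 2.01 in CKO.

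Keratin genes of the stratifying ectoderm were low in the libraries numbered 1 of both groups. *Krt14* had 2.08, 11.8 and 13.9 in WT and 4.05, 13.7 and 11.9 in CKO, and *Krt5* had 6.54, 18.5 and 22.3 in WT and 12.1, 22.8 and 21.9 in CKO. *Epcam*, a marker of the whole ectoderm, had 8.81, 9.56 and 9.39 in WT and 7.23, 9.52 and 10.8 in CKO. *Egr2*, a factor of crest-derived glia and of the hindbrain, was highest in the libraries numbered 1, with 2.24, 0.762 and 0.688 in WT and 2.63, 0.845 and 0.851 in CKO. *Cdh5*, an endothelial cadherin, was highest in WT replicate 1 (12.4) and lowest in CKO replicate 1 (6.30), with 6.79 to 7.95 in the other libraries.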
